A study of Mus musculus with 8 samples.

Results

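C-type lectin pattern receptors are membrane proteins with which myeloid cells sense fungal and mycobacterial sugars and glycolipids and products of damaged cells. Clec7a (Dectin-1) binds beta-glucan, Clec4n (Dectin-2) binds mannose-rich glycans, and Clec4e (Mincle) and Clec4d (MCL) bind the mycobacterial glycolipid trehalose dimycolate. Clec7a carries a tyrosine motif in its own tail, whereas Clec4e, Clec4d and Clec4n signal through the adaptor Fcer1g and Clec5a through Tyrobp. The motifs recruit the kinase Syk, which acts through the adaptor Card9 and its partners Bcl10 and Malt1 to reach NF-kB.

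The genes described are Clec4d, Clec4e, Clec4n, Clec5a, Clec7a, Clec2d, Card9 and Syk. They were chosen by name, not by a rule on their values, but with earlier results of these data known. They are read through probe sets annotated to exactly 1 of these symbols. Of the 8 genes 7 were measured, by 12 probe sets, among 18193 genes on the arrays. Expression of Card9 was not analysed here. Clec2d, a surface ligand of an inhibitory natural killer cell receptor, belongs to the lectin-like family but is not a receptor for microbial sugars of the Dectin kind. The 8 arrays are of macrophages grown from mouse bone marrow for 7 to 10 days in 10 ng/mL macrophage colony-stimulating factor and purified by adherence, with 2 arrays in each of 4 groups. The groups are Tpl2 wild type unstimulated, Tpl2 deficient (called KO in the sample titles) unstimulated, and both genotypes stimulated with LPS, a ligand of toll-like receptor 4, from Escherichia coli at 1 μg/mL. Tpl2 is the kinase encoded by Map3k8, which activates MEK and ERK. The labels give neither the time of LPS treatment of these arrays, nor the mouse strain and age, nor the kind of Tpl2 allele, and although they number the 2 arrays as biological replicates, they do not state that separate animals were used. The p-values thus measure only the spread between these samples.

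Values are log2 RMA intensities, on which 1 unit is a doubling; a level is a mean ± SD (n = 2) and a change is a log2 difference ± standard error from limma, with Benjamini-Hochberg adjusted p-values over all genes. A gene is called past the test at an adjusted p under 0.05. Arrays of a group correlated at r = 0.994 to 0.997 over probe sets, and the LPS-treated Tpl2-deficient pair had the widest spread (median SD of 0.125 against 0.0713 to 0.0740 in the other groups). The fit gives a gene the same spread in all groups. All 9 measured macrophage markers lay above the array medians in every group, and the 5 measured erythroid and mast cell markers lay under them. Of 7 T and NK cell markers 5 or 6 lay under the median in every group, and 3 of 4 B cell markers did. Of 9 dendritic cell markers 3 or 4 lay under it. Map3k8, the targeted gene, was 2.00-fold lower in Tpl2-deficient cells both without LPS (adjusted p = 0.00237) and with it (adjusted p = 0.000125). Its signal still rose 3.21-fold with LPS in both genotypes. Where its single probe set lies relative to the altered part of the gene is not given. In RNA from whole cultures, fewer cells of a type and less RNA per cell cannot be told apart.

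The promoter windows of 5 of these genes are shown because the genes lie on the same chromosome and, as given further on, responded to LPS in different directions. Clec4n lies on that chromosome too, but the promoter sequences used hold no window for it. In RefSeq's gene order on assembly GRCm38.p6, Clec4n, Clec4d and Clec4e are direct neighbours on chromosome 6. Each run is the 250 bases before the gene's start, 5′ to 3′ on the gene's strand: Clec4e at chr6:123289872-123290121 (minus strand), Clec4d at chr6:123261857-123262106 (plus), Clec5a at chr6:40585806-40586055 (minus), Clec2d at chr6:129180365-129180614 (plus) and Clec7a at chr6:129472780-129473029 (minus, the first of 2 starts listed). Capitals mark matches, on either strand, to the motifs described after the sequences.
Clec4e: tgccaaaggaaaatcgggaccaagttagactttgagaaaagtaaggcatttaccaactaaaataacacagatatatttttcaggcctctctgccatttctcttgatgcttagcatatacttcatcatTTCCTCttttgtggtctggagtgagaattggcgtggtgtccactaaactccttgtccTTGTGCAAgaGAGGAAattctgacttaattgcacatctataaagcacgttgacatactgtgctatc
Clec4d: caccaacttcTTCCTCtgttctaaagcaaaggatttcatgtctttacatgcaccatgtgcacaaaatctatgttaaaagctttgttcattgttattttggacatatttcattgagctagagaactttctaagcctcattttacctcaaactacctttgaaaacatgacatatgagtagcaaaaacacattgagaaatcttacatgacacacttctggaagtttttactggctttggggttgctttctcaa
Clec5a: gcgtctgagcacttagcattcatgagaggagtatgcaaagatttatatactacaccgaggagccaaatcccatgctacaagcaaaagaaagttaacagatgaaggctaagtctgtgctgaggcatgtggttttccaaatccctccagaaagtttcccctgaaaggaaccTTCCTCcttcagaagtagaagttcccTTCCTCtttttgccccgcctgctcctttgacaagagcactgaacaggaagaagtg
Clec2d: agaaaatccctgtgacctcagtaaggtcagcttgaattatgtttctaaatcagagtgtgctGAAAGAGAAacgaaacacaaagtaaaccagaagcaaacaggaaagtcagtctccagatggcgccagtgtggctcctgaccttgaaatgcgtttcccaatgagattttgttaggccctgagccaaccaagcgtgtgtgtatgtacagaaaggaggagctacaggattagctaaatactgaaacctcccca
Clec7a: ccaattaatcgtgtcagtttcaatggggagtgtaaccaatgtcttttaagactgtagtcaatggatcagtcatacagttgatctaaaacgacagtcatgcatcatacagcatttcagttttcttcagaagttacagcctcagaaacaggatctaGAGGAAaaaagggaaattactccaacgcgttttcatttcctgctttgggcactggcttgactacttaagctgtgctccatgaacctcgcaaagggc

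The motifs searched were TTNNGCAA for C/EBP factors, TGANTCA for AP-1, GAGGAA for the ETS factor PU.1, GAAANNGAA for interferon-response elements, and the NF-kB consensus. Of 27025 promoter windows of this length, 9.55%, 6.87%, 23.1%, 7.16% and 7.01% held them, in that order. The Clec4e window held a C/EBP match at bases -66 to -59, counted back from the gene's start, and a PU.1 match at -56 to -51 that does not overlap it. A further PU.1 match lay at -123 to -118. The Clec5a window held PU.1 matches at -81 to -76 and -55 to -50, that of Clec7a a match at -96 to -91 and that of Clec4d a match at -240 to -235. Clec2d held the interferon-response letters at -189 to -181. The letters searched for AP-1 and NF-kB are not in these windows. The windows of Syk and Card9, on other chromosomes, were searched too and held no match to any of the motifs. A match describes the letters only and is not a shown binding site.

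The measured lectin genes did not all move in the same direction with LPS, and neither did genes at large. In wild-type macrophages Clec4e, Clec5a, Clec2d and Syk rose, Clec7a and Clec4n fell, and Clec4d did not pass. The 4 rises of 7 stand beside 21.3% of all genes that rose in this comparison, and the 2 falls beside 30.9% that fell. In Tpl2-deficient macrophages 3 of 7 rose (16.0% of all genes) and 2 fell (25.8%), with Syk and Clec4d not past the test. With Tpl2 the median log2 change of the 7 genes was 0.69 (all genes 0.044), and without it 0.31 (all genes 0.002).

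**Figure D1:**
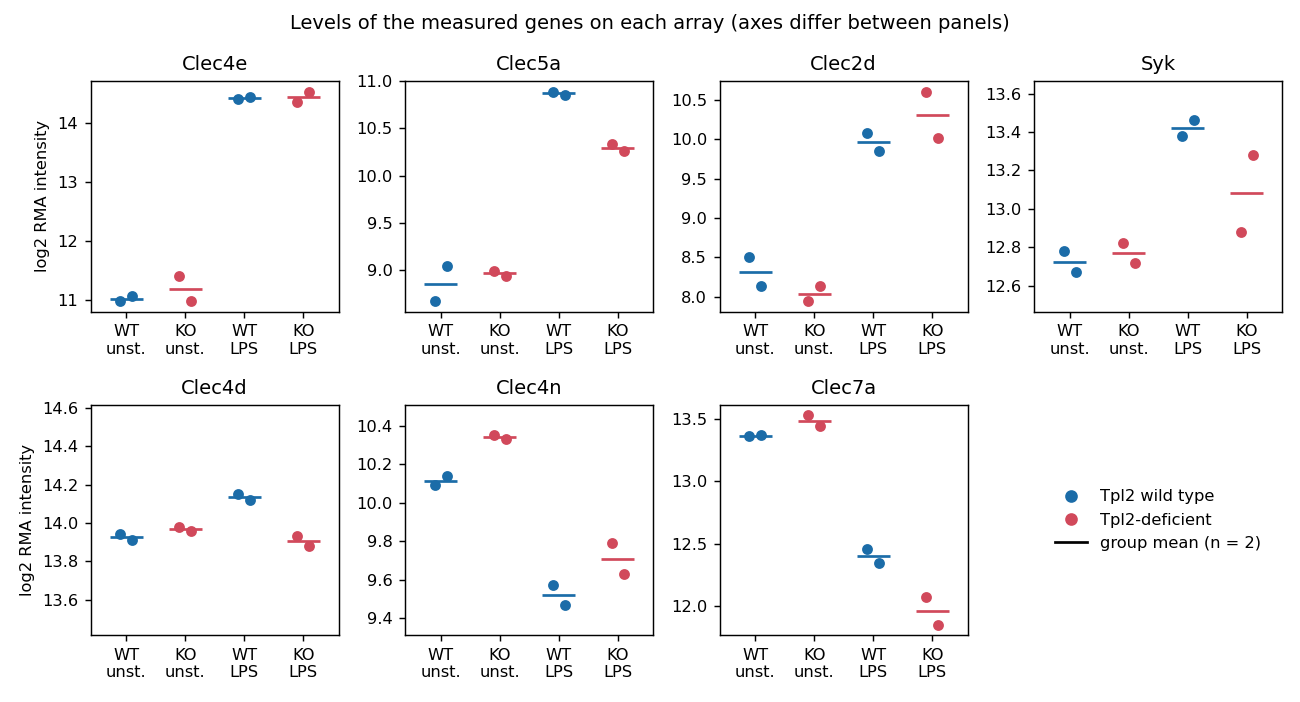
Log2 RMA intensity (vertical axes, which differ between panels) of each measured gene on each of the 8 arrays, by genotype and treatment; points are arrays and lines are means of 2. Clec4e rose to 14.37 to 14.54 on all 4 LPS-treated arrays. For Clec5a, Clec7a, Clec4d and Syk the LPS-treated Tpl2-deficient arrays lie below both LPS-treated wild-type arrays. Of these, Clec4d and Syk did not pass the test between the genotypes under LPS.

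Among the receptors that pair with Fcer1g, Clec4e had the largest response. Its signal was 10.98 and 11.07 on the unstimulated wild-type arrays and 14.41 and 14.44 on the LPS-treated ones. The Tpl2-deficient arrays read 11.40 and 10.99 without LPS and 14.37 and 14.54 with it. All LPS-treated arrays lay above every unstimulated array, and the genotypes overlapped in both states. The rise was 3.40 ± 0.13 in wild-type cells (10.5-fold, adjusted p = 3.8e-09) and 3.26 ± 0.13 in Tpl2-deficient cells (9.60-fold, adjusted p = 5.1e-09). The difference between these responses was -0.13 (95% interval -0.55 to 0.28, adjusted p = 0.737). The other Clec4e probe set gave a larger rise, 4.83 ± 0.15 and 4.79 ± 0.15, from 8.40 to 8.80 without LPS to 13.27 to 13.51 with it. The size of the rise thus differs between the probe sets, while its presence in both genotypes does not. The highest signal of any probe set was 15.22 to 15.33 on these arrays. Whether the Clec4e probe set used still responds in proportion at its levels with LPS was not tested.

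Clec4d, the direct neighbour of Clec4e and its partner in a receptor complex, moved little. Wild-type arrays read 13.94 and 13.91 unstimulated and 14.15 and 14.12 after LPS. Tpl2-deficient arrays read 13.98 and 13.96 unstimulated and 13.93 and 13.88 after LPS. The LPS-treated wild-type arrays are the highest of the 8, and the LPS-treated Tpl2-deficient arrays lie at the low end, with an unstimulated wild-type array between them. LPS changed it by 0.21 ± 0.09 with Tpl2 (adjusted p = 0.0784) and by -0.07 ± 0.09 without it (adjusted p = 0.605). Under LPS the genotypes differed by -0.24 (95% interval -0.44 to -0.03, adjusted p = 0.145). The highest signal of any probe set was 15.22 to 15.33 on these arrays, and whether the Clec4d probe set still responds in proportion at this level was not tested. A single probe set, of the _s_at kind that may match several transcripts, measures Clec4d. The wild-type rise passed the test under 8 of 17 alternatives, with adjusted p from 0.00837 to 0.691.

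Clec4n, the other neighbour, fell in both genotypes. It read 10.09 and 10.14 without and 9.57 and 9.47 with LPS in wild-type cells, and 10.35 and 10.33 without and 9.79 and 9.63 with LPS in Tpl2-deficient cells. The groups with and without LPS did not overlap. The change was -0.59 ± 0.10 in wild type (adjusted p = 0.000529) and -0.63 ± 0.10 in Tpl2-deficient cells (adjusted p = 0.000364). Both unstimulated Tpl2-deficient arrays lay above both wild-type ones, by 0.23 on average (95% interval 0.00 to 0.46), with an adjusted p of 0.368. The other Clec4n probe set changed by -0.53 and -0.84. Under LPS it read -0.10 between the genotypes, where the one used read 0.19, so no direction is given for that difference. Of 3 neighbouring genes that encode Fcer1g-linked receptors, 1 thus rose, 1 did not pass and 1 fell.

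Clec7a, the beta-glucan receptor with its own signalling motif, was lower with LPS in both genotypes and lowest in LPS-treated Tpl2-deficient cells. Without LPS it read 13.36 and 13.37 in wild-type and 13.53 and 13.44 in Tpl2-deficient cells. With LPS it read 12.46 and 12.35 in wild-type and 12.07 and 11.85 in Tpl2-deficient cells. The Tpl2-deficient arrays lay above the wild-type ones without LPS and below them with it, with no overlap in either state. The genotype difference without LPS was 0.12 ± 0.11 and did not pass (limma, adjusted p = 0.661). A reversal of the order by LPS is therefore not shown. LPS changed Clec7a by -0.96 ± 0.11 with Tpl2 (1.94-fold lower, adjusted p = 1.95e-05). Without Tpl2 the change was -1.53 ± 0.11 (2.88-fold lower, adjusted p = 4.85e-07). A single probe set measures Clec7a.

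Clec5a, the Tyrobp-linked receptor, rose in both genotypes and less without Tpl2. It read 8.67 and 9.04 in unstimulated wild-type and 8.99 and 8.94 in unstimulated Tpl2-deficient cells, which overlap. With LPS it read 10.89 and 10.85 in wild-type and 10.33 and 10.26 in Tpl2-deficient cells, which do not. The rise was 2.02 ± 0.12 (4.05-fold, adjusted p = 1.18e-07) in wild-type and 1.33 ± 0.12 (2.51-fold, adjusted p = 4.09e-06) in Tpl2-deficient cells. A single probe set measures Clec5a too.

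Clec2d, the natural killer receptor ligand, rose from 8.50 and 8.13 to 10.08 and 9.85 in wild-type cells and from 7.94 and 8.13 to 10.61 and 10.02 in Tpl2-deficient cells. The LPS-treated Tpl2-deficient arrays lie far apart, and the lower of them is inside the range of the LPS-treated wild-type arrays. The rise was 1.64 ± 0.19 (3.13-fold, adjusted p = 1.84e-05) in wild type and 2.28 ± 0.19 (4.85-fold, adjusted p = 1.48e-06) without Tpl2. The difference between the responses, 0.63 (95% interval 0.05 to 1.22), did not pass (adjusted p = 0.181). Without the second LPS-treated Tpl2-deficient array it was 0.93 with an adjusted p of 0.0341, so 1 array decides the call.

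Syk, the kinase that the Dectin-type receptors recruit, read 12.78 and 12.67 without and 13.38 and 13.46 with LPS in wild-type cells. In Tpl2-deficient cells it read 12.82 and 12.72 without and 12.88 and 13.28 with LPS, the first of the LPS-treated arrays lying close to the unstimulated ones. The rise was 0.69 ± 0.13 in wild type (1.62-fold, adjusted p = 0.000932) and 0.31 ± 0.13 without Tpl2 (adjusted p = 0.0788). Without the first LPS-treated Tpl2-deficient array the latter was 0.51 and passed (adjusted p = 0.00433). All 4 Syk probe sets rose in wild type, by 0.54 to 1.15, and read 0.20 to 0.65 in Tpl2-deficient cells, where 1 passed.

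**Figure D2:**
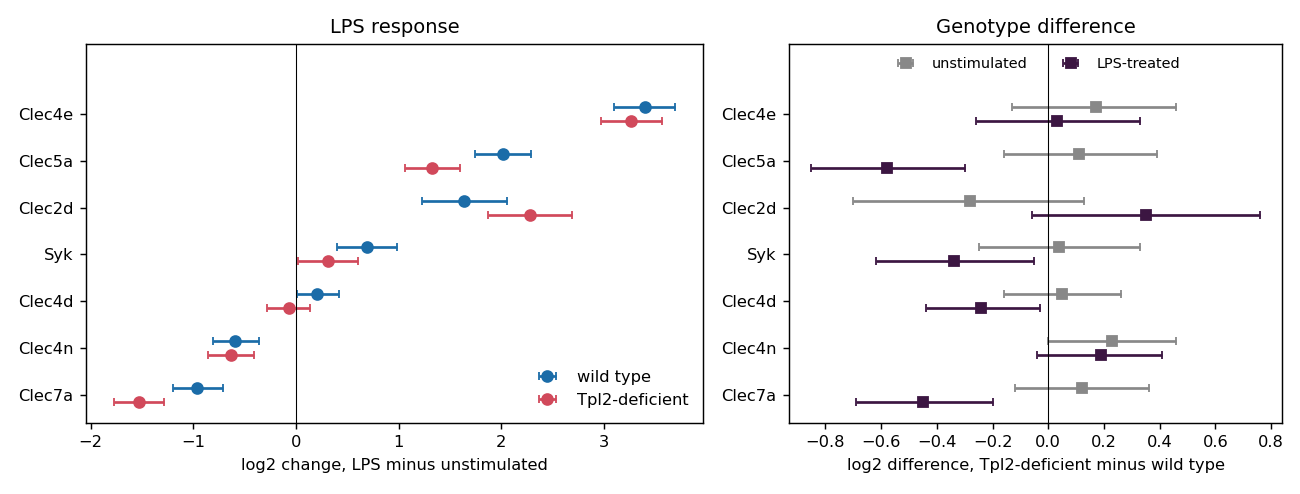
Left, log2 change with LPS (horizontal axis) for each gene in wild-type and Tpl2-deficient cells; right, log2 difference between the genotypes without and with LPS. Points are estimates of the limma fit and bars 95% intervals (2 arrays a group). The intervals of the unstimulated genotype difference include 0 for 6 genes and reach it for Clec4n (0.00 to 0.46), while under LPS those of Clec5a (-0.85 to -0.30) and Clec7a (-0.69 to -0.20) lie furthest below 0.

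The comparison of genotypes without LPS asks whether Tpl2 matters for these genes at rest. None of the 7 genes passed the limma test (0.500% of all genes did in either direction), and Clec4n alone had an unadjusted p under 0.05 (0.0472). The estimates ran from -0.28 for Clec2d to 0.23 for Clec4n, with a median of 0.11, against -0.003 for all genes. The widest interval was that of Clec2d, from -0.70 to 0.13, and that of Clec4e ran from -0.13 to 0.46. For Clec5a the interval ran from -0.16 to 0.39 and for Clec7a from -0.12 to 0.36.

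The comparison of genotypes under LPS asks which of these genes depend on Tpl2 in stimulated cells. Clec5a was lower in Tpl2-deficient cells, at 10.30 ± 0.05 against 10.87 ± 0.02 (-0.58 ± 0.12, 1.49-fold, adjusted p = 0.00935). Clec7a was lower too, at 11.96 ± 0.16 against 12.41 ± 0.08 (-0.45 ± 0.11, 1.36-fold, adjusted p = 0.0195). No other member passed: 2 of 7 were lower, where 5.73% of all genes were, and 0 were higher, where 8.01% were. The median difference was -0.24, and 0.018 over all genes. Clec4e, which rose most with LPS, differed by 0.03 (95% interval -0.26 to 0.33, adjusted p = 0.927). Its dimmer probe set differed by 0.02, and whether either responds in proportion at these levels was not tested. The call of Clec5a was lost with array weights and without either LPS-treated wild-type array, with adjusted p from 0.0571 to 0.0705 and an estimate of -0.59 to -0.56. The call of Clec7a was lost under the same conditions, in a fit of the 4 arrays compared, and without the second LPS-treated Tpl2-deficient array (adjusted p from 0.0535 to 0.154). Its estimate over all alternatives stayed between -0.56 and -0.33.

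With the probe set used, Syk differed by -0.34 ± 0.13 between the genotypes under LPS and did not pass (adjusted p = 0.133). Its other probe sets, with p-values adjusted over all 34945 probe sets with 1 symbol, gave -0.45 (adjusted p = 0.0581), -0.44 (adjusted p = 0.0363) and -0.75 (adjusted p = 0.00236). The last of these read 8.26 and 8.12 in wild-type and 7.27 and 7.61 in Tpl2-deficient cells under LPS. All 4 probe sets were lower on average, and 2 passed. Those 2 were the dimmest, with 8-array means of 6.72 and 7.37. The 2 brighter ones, with means of 13.00 and 10.45, did not pass. The mean of the 4 gave -0.49 (adjusted p = 0.0118). The call for Syk depends on the probe set and on 1 array: without the second LPS-treated Tpl2-deficient array the probe set used gave -0.53 (adjusted p = 0.0104), and without the first -0.14. The difference of the LPS responses of Syk, given next, then passed too (-0.58, adjusted p = 0.0265, without the second array).

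**Figure D3:**
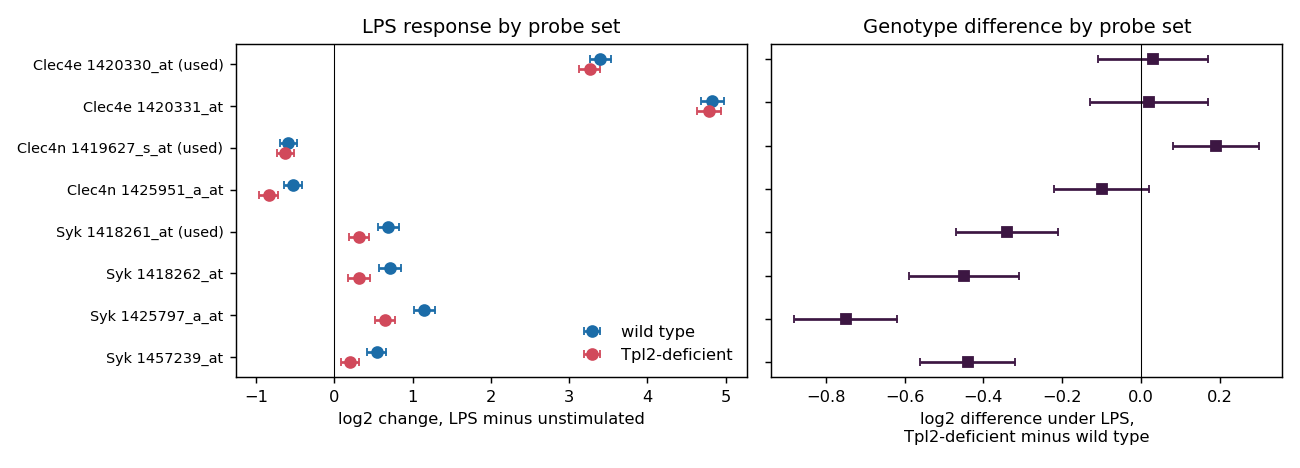
Each probe set of Clec4e, Clec4n and Syk, with the one used marked. Left, log2 change with LPS in each genotype; right, log2 difference between the genotypes under LPS; points are limma estimates and bars standard errors. The Clec4e probe sets differ in the size of the rise (3.40 and 4.83 in wild type), the Clec4n probe sets lie on either side of 0 on the right (0.19 and -0.10), and the 4 Syk probe sets lie between -0.75 and -0.34.

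The difference of the LPS responses, Tpl2-deficient minus wild type, tests whether the response itself depends on Tpl2. It shares its LPS-treated arrays with the comparison just given, so it is not separate evidence. It passed for Clec5a (-0.69 ± 0.17, adjusted p = 0.0342) and Clec7a (-0.57 ± 0.16, adjusted p = 0.0462). These were 2 of 7 with a lower value, against 2.87% of all genes; 0 had a higher value, against 5.72%. For Clec5a this is a smaller rise and for Clec7a a larger fall. The values lie close to the threshold. Clec5a kept its call under 10 of 17 alternatives and Clec7a under 7 of 17, with estimates of -0.87 to -0.51 and -0.68 to -0.46. Leaving out the first unstimulated wild-type array, either unstimulated Tpl2-deficient array, either LPS-treated wild-type array or the second LPS-treated Tpl2-deficient array ended the call of both genes. Leaving out the second unstimulated wild-type array ended that of Clec7a only. With 1 array left in a group, the lone array is assumed to vary like the others. The 95% intervals of the other members were -0.58 to 0.01 for Clec4d, -0.37 to 0.28 for Clec4n and -0.79 to 0.03 for Syk.

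Markers of other cells moved as well. Of 12 neutrophil markers measured, 8 rose and 1 fell after LPS treatment with Tpl2 present (21.3% and 30.9% of all genes), while 2 rose and 1 fell without it (16.0% and 25.8%). Of the wild-type rises, those of Ngp (5.60 to 6.04), Ltf (6.02 to 6.40), Mpo (5.80 to 6.26) and Cxcr2 (5.35 to 5.74) stayed under the array median. These levels are not shown to be above background. The summed linear signal of the 12 markers was 2984 to 3273 without and 4510 to 4575 with LPS in wild-type cells, and 3262 to 3296 and 3431 to 3718 in Tpl2-deficient cells. A linear sum follows its brightest genes, which were Csf3r (11.04) and S100a8 (10.17) in LPS-treated wild-type cells. Under LPS 2 of the 12 were lower without Tpl2 (5.73% of all genes) and 0 were higher (8.01%), with a median difference of -0.05. S100a8, a calcium-binding protein, differed by -1.14 (adjusted p = 0.000142). S100a9, under the array median in every group, differed by 0.02 (adjusted p = 0.974). The group means of Csf3r (10.51 to 11.04), S100a8 (8.46 to 10.17) and Mmp8 (8.36 to 9.22) lay well above the array medians, while 7 of the 12 lay under them in every group, among them the granule genes Elane (6.29 to 6.49), Mpo (5.80 to 6.31) and Prtn3 (6.19 to 6.40). The summed signal of 9 dendritic cell markers was 2973 to 3201 without and 1830 to 2005 with LPS in wild-type cells, and 2306 to 2380 and 1638 to 1690 in Tpl2-deficient cells. With LPS 2 of the 9 rose and 3 fell in wild-type cells, and 1 rose and 2 fell in Tpl2-deficient cells, beside the shares of all genes given above. The brightest in unstimulated wild-type cells, Itgax and Cd24a, changed there by -0.65 and -1.81. Under LPS 1 of these 9 was lower without Tpl2 (5.73% of all genes), Itgax (-0.56, adjusted p = 0.0316), and 0 were higher (8.01%). Of 9 macrophage markers Itgam was lower without Tpl2 under LPS (-0.70, adjusted p = 0.00108) and Mertk higher (1.00, adjusted p = 0.000727). With LPS 2 of 7 T and NK cell markers rose and 0 fell in each genotype. Of 5 erythroid and mast cell markers, all under the array medians, 1 rose and 0 fell in each genotype. Of 4 B cell markers 1 rose in wild-type and 0 in Tpl2-deficient cells, and 0 fell. The shares of all genes are those given above. The 3' to 5' signal ratio of beta-actin, which reads RNA integrity, was 0.74 ± 0.10 and 0.51 ± 0.06 (log2, SD, n = 2) without and with LPS in wild-type cells and 0.88 ± 0.03 and 0.65 ± 0.05 in Tpl2-deficient cells. That of Gapdh was 0.03 ± 0.09 and -0.08 ± 0.01 in wild-type cells and 0.07 ± 0.01 and 0.08 ± 0.03 in Tpl2-deficient cells. The part of any of these in the changes of the lectin genes was not tested.

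Genes of the proteins that carry lectin receptor signals moved in both directions with LPS, as genes at large did. Of 27 measured genes of the Syk and Card9 route, 8 rose and 11 fell after LPS with Tpl2 present, where 21.3% and 30.9% of all genes did. In cells lacking Tpl2, 3 rose and 13 fell, where 16.0% and 25.8% of all genes did. The median change was 0.03 and -0.20. Malt1, the protease of the complex that Card9 builds, rose by 3.39 ± 0.12 in wild-type and 3.19 ± 0.12 in Tpl2-deficient cells. Src, a kinase that phosphorylates receptor tails, rose by 3.33 ± 0.11 and 3.68 ± 0.11. The inositol phosphatase Inpp5d (SHIP1), an inhibitor of this signalling, fell 11.1-fold and 17.4-fold. The calcium-dependent factor Nfatc2 changed by -2.87 and -3.04 and the membrane adaptor Lat2 by -2.19 and -2.48. These sizes rest on the probe set used: the mean of 6 probe sets gave -0.34 and -0.36 for Nfatc2, and the mean of 3 gave -0.49 and -0.61 for Lat2. For Inpp5d the mean of 2 gave -2.50 and -2.74. All of these means passed. Of the receptor adaptors, named for their role, Fcer1g read 14.22 to 14.46 on all 8 arrays and did not pass in any comparison. Whether its probe set still responds in proportion at this level was not tested. Tyrobp, the adaptor of Clec5a, read 14.25 to 14.63, and a response in proportion at this level was not tested either. It changed by -0.32 with Tpl2 (adjusted p = 0.0170) and by -0.30 without it (adjusted p = 0.0278). The first call was lost without any 1 of the 4 wild-type arrays (adjusted p from 0.0682 to 0.0834), and the second with array weights, with only the 4 arrays compared, and without either unstimulated Tpl2-deficient array or the second LPS-treated one (adjusted p from 0.0539 to 0.118).

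No gene of this route passed between the genotypes without LPS. Under LPS 10 of 27 were lower in Tpl2-deficient cells and 1 was higher, where 5.73% and 8.01% of all genes were. The median was -0.25, and 0.018 over all genes. Sla, an adaptor that dampens receptor signalling, differed by -1.52 (2.86-fold lower; 8.60 and 8.89 against 10.28 and 10.24, adjusted p = 5.91e-06). The Src-family kinase Fgr differed by -1.14, the exchange factor Vav3 by -1.09 and the ubiquitin ligase Cbl by -0.98. Blnk, an adaptor that Syk phosphorylates, was higher by 0.56 ± 0.11 (adjusted p = 0.00536). The difference of the LPS responses passed for 7 of the 27 genes, 6 lower and 1 higher (2.87% and 5.72% of all genes). The count of 6 was 3 without either unstimulated wild-type array, the first unstimulated Tpl2-deficient array or the second LPS-treated wild-type array. The largest was that of Sla, -1.81 ± 0.16, whose LPS change was 1.21 with Tpl2 and -0.60 without it. Bcl10, named for its role as the partner of Card9, differed by -0.57 under LPS (adjusted p = 0.00298).

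**Figure D4:**
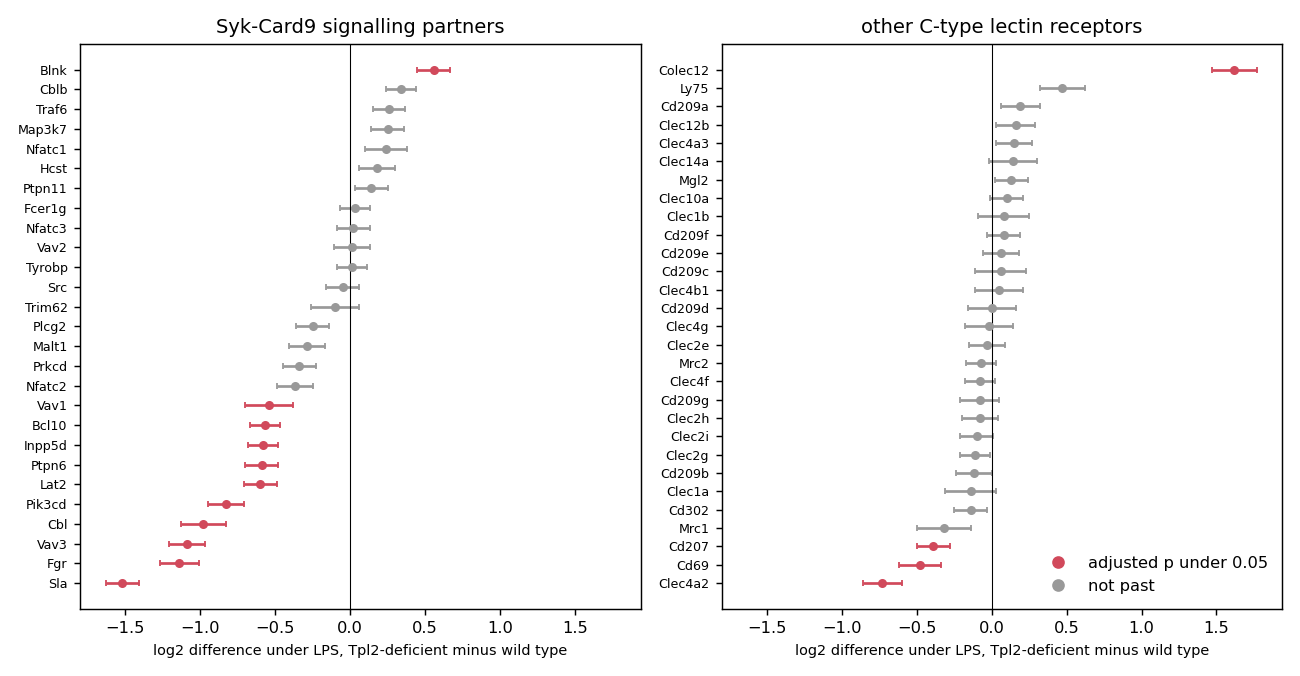
Log2 difference under LPS, Tpl2-deficient minus wild type, of the 27 measured signalling partners (left) and the 29 other C-type lectin receptors (right); points are limma estimates, bars standard errors, and colour marks an adjusted p under 0.05. Sla (-1.52) lies lowest on the left, and Colec12 (1.62) highest on the right.

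Of 29 other C-type lectin receptors measured, 4 rose and 5 fell after LPS with Tpl2 present, where 21.3% and 30.9% of all genes did. In cells lacking Tpl2, 2 rose and 6 fell, where 16.0% and 25.8% of all genes did. The medians were 0.10 and 0.05. In wild-type cells 16 of them lay under the array median in either state. Cd69, a lectin-like activation marker next to Clec2d in the gene order, rose from 5.45, under the array median, to 13.64 in wild-type cells, a rise of at least 8.19 that is read as a lower bound. Cd207 (langerin) changed by -1.07 with Tpl2 and by -1.02 without it. Colec12 changed by -1.04 with Tpl2 and -0.59 without it, and Clec4b1 by -1.01 and -0.57. Clec10a, a galactose-type receptor, changed by -0.70 with Tpl2, ending under the array median so that this is a lower bound of the fall, and by -0.91 without it. The mannose receptor Mrc1 changed by -0.61 with Tpl2 (adjusted p = 0.0162) and by -0.99 without it (adjusted p = 0.000922), and the difference between these did not pass (adjusted p = 0.421).

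Between the genotypes, Colec12, a scavenger receptor with a lectin domain, was higher in Tpl2-deficient cells both without LPS (1.18 ± 0.15, adjusted p = 0.00533) and with it (1.62 ± 0.15, adjusted p = 2.35e-05). Colec12 lies on chromosome 18, as does the targeted Map3k8. The call without LPS was lost without the second unstimulated wild-type or the second unstimulated Tpl2-deficient array (adjusted p = 0.0841 and 0.0542). Under LPS 3 of the 29 receptors were lower in Tpl2-deficient cells (5.73% of all genes; 1 of 29 without any 1 of the 4 wild-type arrays), of which Clec4a2, an inhibitory receptor of the same gene cluster as Clec4e, had the largest difference. It read 11.95 and 11.91 in wild-type and 11.40 and 11.00 in Tpl2-deficient cells (-0.73 ± 0.13, adjusted p = 0.00251).

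The genes most like each member over the 8 arrays, among 8848 named genes above the median level, were read as a description. The arrays fall into unstimulated and LPS-treated clusters, so a high Pearson's r mostly reads a shared LPS change, and no p is given. Setdb2, a histone methyltransferase, was most like Clec4e (r = 0.9998 over 8 arrays), with LPS changes of 3.07 and 2.97 in wild-type and Tpl2-deficient cells; Hivep3 (0.9996) and the antiviral Mx1 (0.9995) followed. For Clec5a these were Zdhhc6, the endothelin gene Edn1 and Calcrl (r = 0.9948, 0.9946 and 0.9945), of which Edn1 rose by 5.67 in wild-type and 3.74 in Tpl2-deficient cells. For Clec7a they were Rnf157, the fatty acid ligase Acsl3 and Klhdc3 (r = 0.9972, 0.9953 and 0.9923), and Acsl3 changed by -1.57 with Tpl2 and -2.30 without it. For Clec2d they were Tyw5, the proteasome subunit Psma2 and Ece2 (r = 0.9952, 0.9933 and 0.9929).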

How the data were processed

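Expression was measured on 8 Affymetrix arrays. The deposited values are log2 RMA intensities per probe set. The submitters' processing notes list GCOS and RMA with no version; no chip definition file is named in the sources used here. RMA equalises the arrays' distributions, so differences are relative to the bulk of probe sets, and low signals are compressed. The files used hold no detection calls or batches, and the number of arrays limits the precision.

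Of 45101 probe sets, 34945 carry exactly 1 symbol in the platform annotation, and the one brightest on average over the 8 arrays stood for each of 18193 genes, with no filter on low values. Group means were compared in limma 3.58.1 (R 4.3.3, lmFit and eBayes, two-sided, 4 residual and 6.87 prior degrees of freedom), all 4 groups in 1 fit, and p-values were Benjamini-Hochberg adjusted over all genes at 0.05. Intervals are unadjusted 95% intervals. Group means under their arrays' medians (6.48 to 6.53) were read as not shown to be above background. Per list, comparison and direction, at most 4 genes past the test are named, by size of change. A gene named for 1 genotype may be given for the other too. Fcer1g, Tyrobp, Bcl10 and the markers of other cells were named after their values were seen. Settings varied were the choice of probe set, normalization and centring, the level of genes tested, a variance trend, array weights, the arrays fitted, a replicate block and each array left out. The members and lists were chosen with earlier results of these data known. The fit was tested on simulated data. Promoters are RefSeq's (GRCm38.p6). Expression of Card9 was not analysed here, as no probe set carries its symbol in the annotation used.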

Additional observations from a re-analysis of the deposited data

Results flagged for a closer look

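The LPS response differed between the genotypes (Tpl2-deficient minus wild type, limma, adjusted p under 0.05) for 13 of the members, partners, receptors and markers named, with 8 arrays in the fit; genes named only for their likeness to a member were not looked at here; each difference is followed by the wild-type and Tpl2-deficient responses. Among the lectin receptors and Syk these were Clec5a, at -0.69 (2.02 and 1.33, adjusted p = 0.0342), and Clec7a, at -0.57 (-0.96 and -1.53, adjusted p = 0.0462).

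Among the signalling partners, Sla differed by -1.81 (1.21 and -0.60), Vav3 by -1.12 (0.23 and -0.89), Cbl by -1.11 (-0.44 and -1.54) and Blnk by 0.89 (-1.04 and -0.15). These 4 passed in all 17 alternatives run. Fgr differed by -0.88 (0.69 and -0.20) and passed in 12 of 17 alternatives, with adjusted p up to 0.0645. The kinase subunit gene Pik3cd differed by -0.71 (0.97 and 0.26, 11 of 17, up to 0.106) and Inpp5d by -0.65 (-3.47 and -4.12, 11 of 17, up to 0.261). With the mean of its probe sets Inpp5d differed by -0.24 and did not pass.

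Among the other lectin receptors, Clec4a2 differed by -0.69 (-0.01 and -0.69). Its call was lost with the mean of its probe sets (-0.51, adjusted p = 0.0961) and without any 1 of 6 arrays (adjusted p from 0.103 to 0.132), and its change in Tpl2-deficient cells was -0.26 with that mean (adjusted p = 0.109). Cd69 differed by -0.91 (8.19 and 7.29) and passed in 13 of 17 alternatives. It lies under the array median without LPS, so its responses are lower bounds and their difference is no bound. Of the cell type markers named, S100a8 differed by -0.81 (1.38 and 0.57, passing in 12 of 16 alternatives) and Mertk by 0.89 (-1.18 and -0.29, in 11 of 17).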

How the results depend on the processing

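Of 650 recomputed changes of the 7 genes, 587 kept their direction and side of the threshold, 25 lost and 23 gained a call, and 15 changed sign, none of them a called value. The LPS calls of Clec4e, Clec5a, Clec2d, Clec4n and Clec7a in both genotypes and of Syk in wild type held in each alternative run. The count of members lower without Tpl2 under LPS (2) was 3 with the mean of all probe sets, repeated quantile normalization or a variance trend, 0 with array weights, 1 with only the 4 arrays compared, and 0 to 2 leaving out 1 array; that of members higher (0) was 0 to 1. For the difference of the responses, the count lower (2) was 3 with a variance trend, 1 with repeated quantile normalization, median centring, spike-in centring or array weights, and 0 to 2 leaving out 1 array; the count higher (0) was 0 to 1. The cause was not tested. Signs turned for the unstimulated genotype difference of Syk (-0.0881 as the mean of its probe sets; -0.05, -0.25 and -0.10 for the other 3) and, under LPS, for Clec4n (-0.104 without _x_at and _s_at probe sets, -0.10 with its other probe set) and Clec4e (-0.00559 with quantile normalization). Outside the members, the LPS change of Cbl in wild type turned from -0.44 to 0.26 with the mean of its probe sets. Leaving out 1 array, the unstimulated difference ranged from -0.0361 to 0.371 for Clec4e, -0.0696 to 0.296 for Clec5a and -0.0125 to 0.100 for Syk; under LPS Clec4e ranged from -0.0503 to 0.118; the difference of responses ranged from -0.337 to 0.0699 for Clec4e and -0.128 to 0.0382 for Clec4n. Replicate numbers did not pair the samples (r of replicate differences -0.152 to 0.0897), and with a replicate block 2 members were again lower under LPS (Clec5a -0.58, adjusted p = 0.0129). A crossed replicate block for LPS in Tpl2-deficient cells, chosen after seeing the data, gave 3 members higher and 2 lower. Clec4d has no value without _s_at probe sets.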
